A study of Mus with 6 samples.

Results

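A group of 6 abundant RNAs, made up of ENSMUSG00000076258, Malat1 (ENSMUSG00000092341), Neat1 (ENSMUSG00000092274), Gm26917 (ENSMUSG00000097971), Gm42418 (ENSMUSG00000098178) and ENSMUSG00000065037, was followed in mouse lens epithelial cells (LECs) after surgical removal of the lens fiber cells. They are 6 of the 55421 genes counted. The 6 genes were chosen by their high share of the gene counts in these same libraries, so their abundance is a description and not a finding. RNAseq was available for wildtype C57BL/6 mice whose labelled age was 2 months (the study's methods give an older age range and both sexes), with 3 libraries of LECs taken at once after fiber cell removal (0 h post cataract surgery, PCS) and 3 taken 6 h PCS. No transgene, knockout or drug was used in these groups. Each library came from a pool of 5 lens capsules, so a library averages several eyes and the spread between libraries is a spread between pools. The RNA was depleted of ribosomal RNA rather than selected for poly(A) tails, and fragments were counted once per gene of the mouse annotation.

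Malat1 and Neat1 are long noncoding RNAs that stay in the nucleus. Malat1 gathers in nuclear speckles, bodies rich in pre-mRNA splicing factors, and Neat1 is the scaffold around which paraspeckles form. The RefSeq annotation lists Gm42418 as a synonym of Rn18s-rs5, a pseudogene related to the 18S ribosomal RNA. Gm26917 could not be matched in that annotation, and no symbol was at hand for ENSMUSG00000076258 or ENSMUSG00000065037, which are therefore described by their levels alone. Abundant noncoding RNAs matter for any RNAseq experiment because every library is read to a limited depth, so a larger share for a few RNAs leaves a smaller share for the rest.

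In the GRCm38 assembly Malat1 lies on chromosome 19 from 5795690 to 5802672 and Neat1 on the same chromosome from 5824708 to 5845480. A small cytoplasmic RNA, Mascrna, is annotated inside the Malat1 span from 5795924 to 5795981. Gm42418 lies on chromosome 17 from 39846354 to 39848202, and the long noncoding RNA AY036118 (39848112 to 39898385) overlaps its end. Whether the counting left out fragments in that overlap depends on its strand setting and gene models, which were not at hand. Fragments that matched several places were left out, so the level of Gm42418 is uncertain. Read pairs left out because they touched more than 1 gene were between 0.670% and 0.888% of all pairs per library, and pairs left out because they matched several places were between 2.01% and 2.83%.

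Together the 6 RNAs took more than 21% of the gene counts in every library. Their summed share was 22.3%, 21.8% and 21.7% in the 3 libraries at 0 h PCS, and 32.3%, 22.4% and 23.9% in replicates 1, 2 and 3 at 6 h PCS. The mean share was 21.9% ± 0.337 (SD, n = 3) at 0 h PCS and 26.2% ± 5.34 (SD, n = 3) at 6 h PCS. Every 6 h library lay above every 0 h library, but replicate 1 at 6 h PCS stood apart from its fellows, and without it the 6 h mean was 23.2%. In a bulk sample, fewer cells of a type and less RNA per cell cannot be told apart, and this holds for the shares and levels given here.

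**Figure D1:**
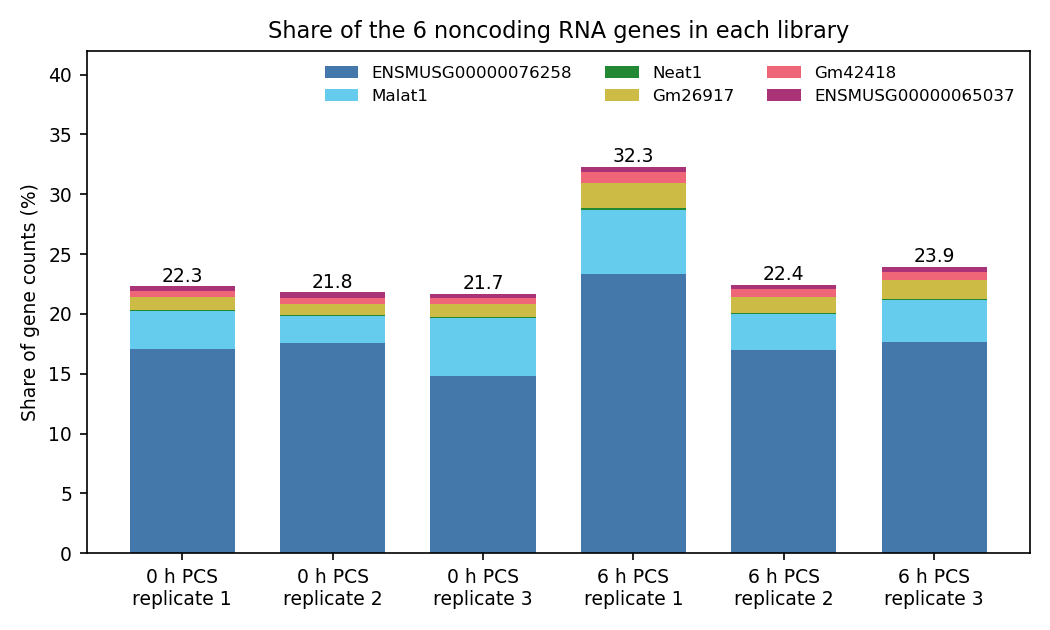
Share of all gene counts (percent) taken by each of the 6 RNAs in each of the 6 libraries, drawn as stacked bars that start at 0. ENSMUSG00000076258 fills most of every bar, and the bar of 6 h PCS replicate 1, at 32.3%, is the tallest.

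ENSMUSG00000076258 was the most abundant gene in all 6 libraries. It took 17.0%, 17.6% and 14.8% of the gene counts in the 0 h libraries and 23.3%, 17.0% and 17.7% in the 6 h libraries, so the shares of the groups overlapped. Between 68.4% and 80.7% of the counts of the 6 RNAs in a library belonged to this gene. Of the 4.29 percentage points by which the mean summed share was higher at 6 h PCS, it contributed 2.84 points, or 66.2%. Gm26917 contributed 0.642 points, Malat1 0.526 and Gm42418 0.226, while Neat1 and ENSMUSG00000065037 contributed 0.0503 and 0.00545. Without replicate 1 at 6 h PCS the difference was 1.24 points, of which ENSMUSG00000076258 gave 0.837 and Gm26917 0.406, and Malat1 went the other way at -0.152.

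Malat1 took 3.21%, 2.27% and 4.85% of the gene counts at 0 h PCS. At 6 h PCS it took 5.33%, 3.04% and 3.54%. The groups overlapped, since replicate 3 at 0 h PCS was above replicates 2 and 3 at 6 h PCS, and the gene ranked between 2 and 5 among all genes in every library.

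Neat1 took far fewer counts than the other genes. It took 0.0502%, 0.0145% and 0.0781% at 0 h PCS, from 10700, 3581 and 15814 counts. At 6 h PCS it took 0.147%, 0.0713% and 0.0752%, from 26553, 16029 and 14247 counts. Its rank among all genes ran from 32 in replicate 1 at 6 h PCS down to 799 in replicate 2 at 0 h PCS, so the name "abundant" does not describe Neat1 in every library. By mean share it ranked 84, against 1 to 13 for the other 5 genes.

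Gm26917 took 1.08%, 0.957% and 1.09% at 0 h PCS and 2.16%, 1.33% and 1.57% at 6 h PCS. Gm42418 took 0.536%, 0.524% and 0.503% at 0 h PCS and 0.921%, 0.625% and 0.695% at 6 h PCS. These were the 2 of the 6 genes whose shares did not overlap between the groups, against a background of 8.32% of all tested genes that were separated on this scale with the higher share at 6 h PCS. ENSMUSG00000065037 took 0.385%, 0.440% and 0.323% at 0 h PCS and 0.426%, 0.370% and 0.367% at 6 h PCS, with overlapping groups.

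Levels were also put on the scale of the trimmed mean of M-values (TMM), which sets libraries to a common level by the bulk of their genes and gives counts per 1000000 (CPM). On this scale ENSMUSG00000076258 was at 156300, 158240 and 129570 CPM in the 0 h libraries and at 282600, 171850 and 201490 CPM in the 6 h libraries. Malat1 was at 29459, 20473 and 42372 CPM in the 0 h libraries and at 64527, 30762 and 40454 CPM in the 6 h libraries. Neat1 was at 460.4, 130.5 and 682 CPM in the 0 h libraries and at 1782, 721 and 858 CPM in the 6 h libraries. All of these were highest in replicate 1 at 6 h PCS, and for Malat1 the groups overlapped.

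Gm26917 was at 9893, 8611 and 9531 CPM in the 0 h libraries and at 26112, 13425 and 17901 CPM in the 6 h libraries. Gm42418 was at 4917, 4717 and 4398 CPM in the 0 h libraries and at 11148, 6326 and 7935 CPM in the 6 h libraries. ENSMUSG00000065037 was at 3533, 3957 and 2819 CPM in the 0 h libraries and at 5163, 3741 and 4194 CPM in the 6 h libraries. Replicate 1 at 6 h PCS was again the highest library for each of them. On the TMM scale 4 of the 6 genes did not overlap between the groups, all of them higher at 6 h PCS, against 15.3% of all tested genes in that direction, 15.3% in the opposite direction and 30.6% in either.

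**Figure D2:**
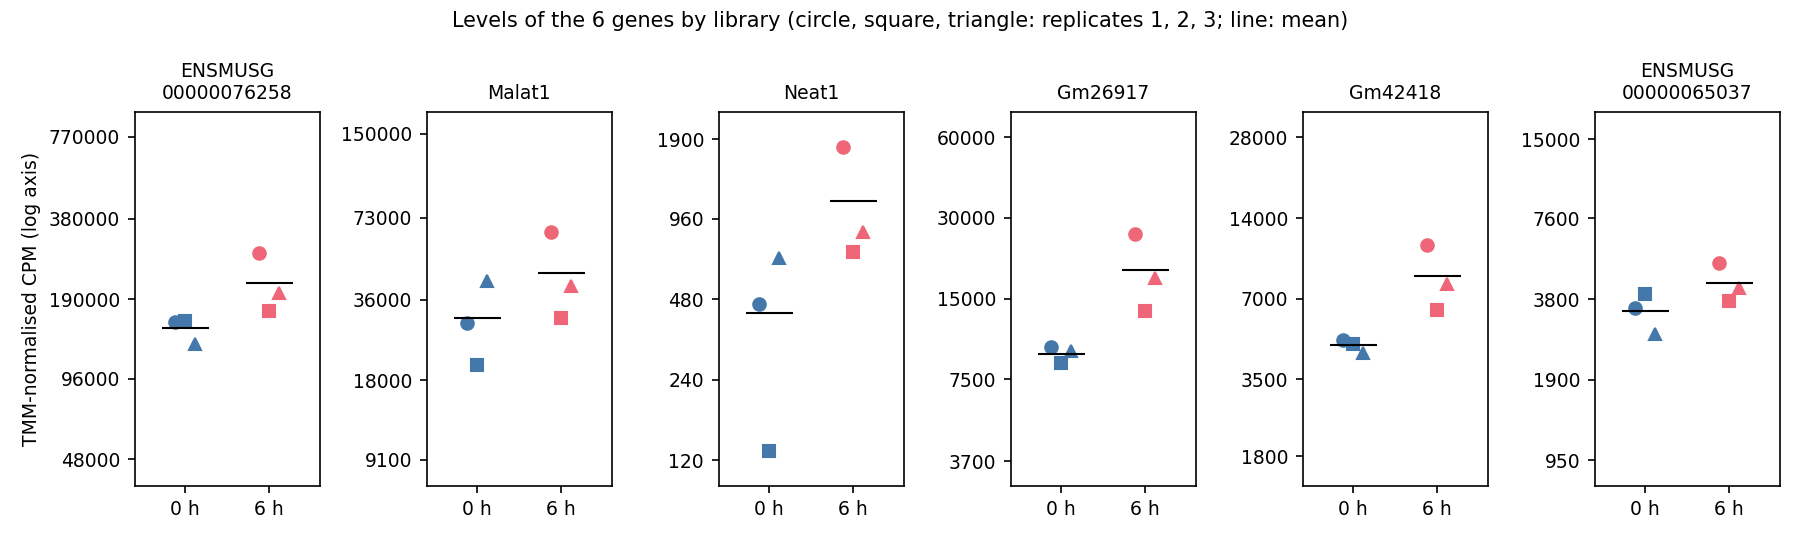
TMM-scaled level (CPM, log axis) of each of the 6 RNAs in the 6 libraries, with 1 point per library and a line at the mean of each group. Replicate 1 at 6 h PCS is the top point for every gene, and the groups overlap for Malat1 and ENSMUSG00000065037.

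The comparison of 6 h with 0 h PCS asked which genes changed after fiber cell removal. A gene was a differentially expressed gene (DEG) when its false discovery rate (FDR) over the 16810 tested genes was at most 0.05 and its fold change above 2. All 6 RNAs passed the filter on low counts, and 1 of them, Gm26917, was a DEG, against 5.35% of all tested genes (4.53% upregulated and 0.821% downregulated). Gm26917 rose from 9345 ± 661 to 19146 ± 6434 CPM (SD, n = 3). Its log2 fold change was 1.03 with an SE of 0.230 and an edgeR FDR of 0.0225. Its fold, 2.05, sat close to the limit of 2. It was no longer a DEG when any 0 h library was left out (edgeR FDR 0.0980, 0.0710 and 0.0798 without replicates 1, 2 and 3), or when replicate 1 at 6 h PCS was left out (log2 fold change 0.74, edgeR FDR 0.0235).

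Gm42418 rose from 4677 ± 262 to 8469 ± 2455 CPM (SD, n = 3). Its log2 fold change was 0.86 with an SE of 0.206 and an edgeR FDR of 0.0320, so it passed the FDR limit, while its fold of 1.81 was under the fold limit. With it, 2 of the 6 genes were at an FDR of at most 0.05, against 8.33% of all tested genes. When a 0 h library was left out 0 of the 6 was at that limit, against 3.53%, 5.57% and 4.60% of the genes tested without replicates 1, 2 and 3, and the edgeR FDR of Gm42418 was 0.124, 0.0795 and 0.125 in the same order. Among the ways of leaving out a library, Gm42418 was a DEG only when replicate 2 at 6 h PCS was left out, where its log2 fold change was 1.00 and the edgeR FDR 0.0187.

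The other 4 genes did not pass the test in this fit. ENSMUSG00000076258 averaged 148039 ± 16020 CPM before and 218648 ± 57335 CPM after the 6 h (SD, n = 3). Its log2 fold change was 0.56 with an SE of 0.212 and an edgeR FDR of 0.143. With DESeq2 (FDR 0.0473), and in edgeR with no filter on low counts (FDR 0.00408), it was at an FDR of at most 0.05 and under the fold limit. In each of those fits 3 of the 6 genes were at that FDR, against 13.0% and 8.07% of all genes tested. For Malat1 the means were 30768 ± 11008 and 45248 ± 17385 CPM (SD, n = 3), with a log2 fold change of 0.56, an SE of 0.327 and an edgeR FDR of 0.357. Neat1 had the largest estimate of the 6 and the largest error. Its means were 424 ± 278 and 1120 ± 577 CPM (SD, n = 3), and its log2 fold change of 1.40 had an SE of 0.710 and an edgeR FDR of 0.325. ENSMUSG00000065037 had means of 3436 ± 575 and 4366 ± 726 CPM (SD, n = 3), and its log2 fold change was 0.35 with an SE of 0.182 and an edgeR FDR of 0.292.

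Leaving out replicate 1 at 6 h PCS lowered the estimate for every gene of the group. The log2 fold change became 0.33 for ENSMUSG00000076258, 0.21 for Malat1, 0.89 for Neat1, 0.61 for Gm42418 and 0.20 for ENSMUSG00000065037. For Malat1 and Neat1 the choice of the 0 h library mattered as well, as the estimates ran from 0.33 to 0.85 and from 0.97 to 1.92 over the 3 ways of leaving out a 0 h library.

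**Figure D3:**
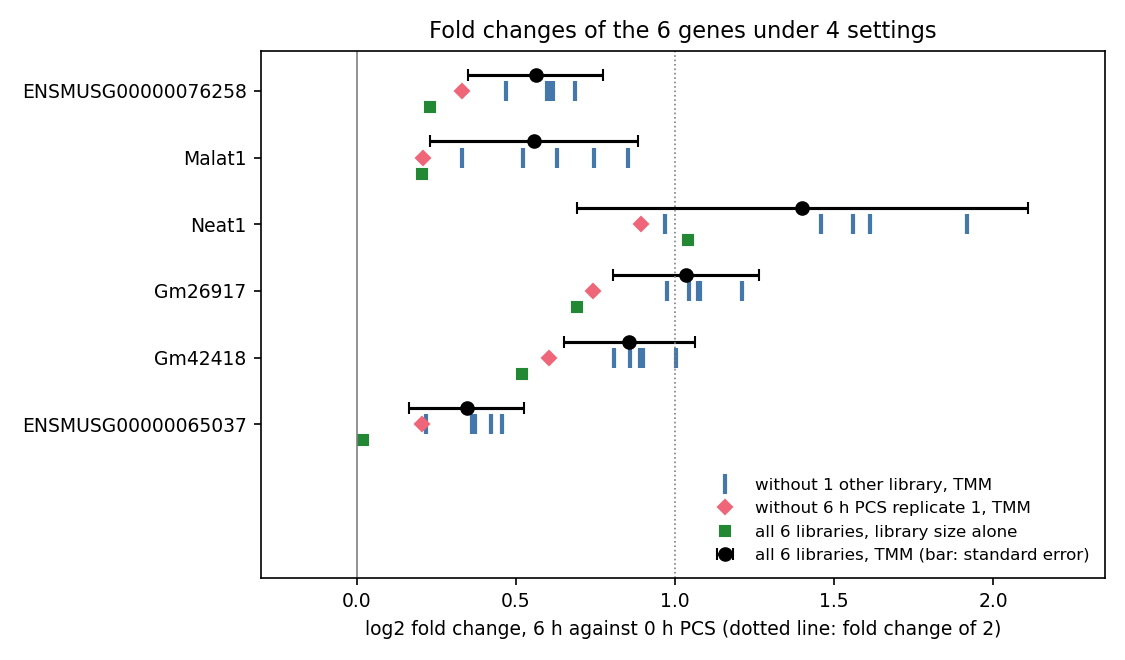
Log2 fold change of each RNA, 6 h against 0 h PCS, with all 6 libraries under TMM (black, bars are the SE), with 1 library left out at a time (ticks, and a diamond for 6 h PCS replicate 1) and under scaling by the total of gene counts (squares). Among the left-out libraries the diamond lies lowest for each gene, and Gm26917 is at 1.03 with all libraries and at 0.74 without that library.

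Library features moved with these levels. In replicate 1 at 6 h PCS, 33.6% of the read pairs were counted in genes, against 40.1% and 41.0% in the other 6 h libraries and 39.5% to 41.2% in the 0 h libraries. In the same library 44.1% of the pairs were not aligned, against 34.2% to 40.0% in the other 5. Pairs that aligned outside annotated genes were 14.1%, 11.4% and 18.7% at 0 h PCS, the same order of libraries as for Malat1 and Neat1. At 6 h PCS they were 15.7%, 14.3% and 14.1%, lowest in replicate 3, whereas Malat1 and Neat1 were lowest in replicate 2. The mitochondrial ribosomal RNAs mt-Rnr2 and mt-Rnr1, which ranked 2 and 6 by mean share, took 3.90% to 4.22% of the gene counts in the 0 h libraries and 7.27% to 8.66% in the 6 h libraries, and both were upregulated DEGs (log2 fold change 1.29 for each). The part of these features in the levels of the 6 RNAs was not tested.

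Compared per length, Malat1 was well above its chromosomal neighbour. Counts per kilobase of annotated span per 1000000 gene counts were 4933 ± 1865 for Malat1 and 22.9 ± 15.3 for Neat1 at 0 h PCS, and 5687 ± 1722 and 47.1 ± 20.6 at 6 h PCS (SD, n = 3). Gm42418 was at 2818 ± 89.9 at 0 h PCS and 4040 ± 835 at 6 h PCS (SD, n = 3) on the same scale. Malat1 was above Gm42418 in each of the 6 libraries, but at 6 h PCS the ranges of the pair overlapped, from 4355 to 7631 for Malat1 and from 3382 to 4979 for Gm42418. No span was at hand for the other 3 genes, so their levels were not set against these per length.

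Ratios of counts within a library do not depend on the scaling. The ratio of Malat1 to Neat1 counts was 64.0, 157 and 62.1 at 0 h PCS and 36.2, 42.7 and 47.1 at 6 h PCS. The groups did not overlap, and the spread at 0 h PCS came from replicate 2, the library with the fewest Neat1 counts. The ratio of Gm26917 to Gm42418 counts was steadier, at 2.01, 1.83 and 2.17 at 0 h PCS and 2.34, 2.12 and 2.26 at 6 h PCS. The ratio of ENSMUSG00000076258 to ENSMUSG00000065037 counts was 44.2, 40.0 and 46.0 at 0 h PCS and 54.7, 45.9 and 48.0 at 6 h PCS. The groups overlapped for both of these ratios. An exact two-sided permutation test of the log2 ratio gave p = 0.1 for Malat1 over Neat1, the smallest p that 3 libraries against 3 allow, and p = 0.2 for each of the other pairs (exact test, p = 0.2 for all 3 after adjustment over them). The pairs were picked after the values were seen, so these p-values support nothing further.

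**Figure D4:**
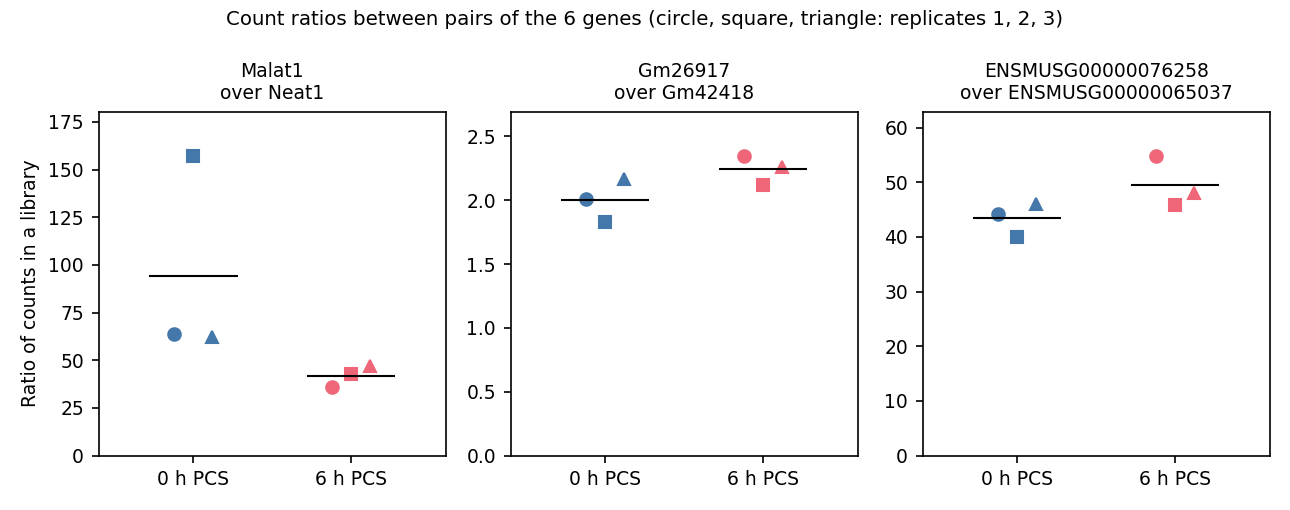
Ratio of counts within each library for 3 pairs of RNAs, with 1 point per library, a line at the group mean and a separate axis per pair. For Malat1 over Neat1 the 6 h libraries (36.2 to 47.1) lie below the 0 h libraries (62.1 to 157), and the other pairs overlap between the groups.

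Across the 6 libraries the log2 levels of some of these genes ran close together. Pearson's r was 0.991 for Gm26917 with Gm42418, 0.973 for ENSMUSG00000076258 with Gm42418 and 0.946 for ENSMUSG00000076258 with ENSMUSG00000065037. It was 0.934 for Malat1 with Neat1, and 0.350 and 0.330 for Malat1 and Neat1 with ENSMUSG00000065037. These values describe 6 libraries that share a time effect and the same scaling, with replicate 1 at 6 h PCS at one end for every gene. Among 2823 genes with a mean of at least 50 CPM outside the group, Lars2, which encodes the mitochondrial leucyl-tRNA synthetase, was closest to Gm42418 (r = 0.995). Lars2 was at 173, 173 and 156 CPM at 0 h PCS and 328, 209 and 268 CPM at 6 h PCS. Ccdc136 (r = 0.985) and Gm24187 (r = 0.980) were closest to ENSMUSG00000076258, and Nop53 (r = 0.970), which encodes a nucleolar protein of ribosome assembly, was among the 2 closest to ENSMUSG00000065037. The genes closest to Malat1, Neat1 and Gm26917 had no symbol at hand.

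The share of the 6 RNAs also enters any scaling on the total of gene counts. With them left out, the counts that remained were 16563963, 19318277 and 15864922 at 0 h PCS and 12209761, 17452018 and 14420220 at 6 h PCS. Replicate 1 at 6 h PCS had the fewest. The log2 of the share left to all other genes was -0.36, -0.35 and -0.35 at 0 h PCS and -0.56, -0.37 and -0.39 at 6 h PCS.

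Under TMM scaling all tested genes had a median log2 fold change of -0.0030, with 762 upregulated and 138 downregulated DEGs, so 84.7% of the DEGs were upregulated. Under scaling by the total of gene counts the median was -0.32, with 572 upregulated and 627 downregulated DEGs (47.7% upregulated). Leaving ENSMUSG00000076258 out of the total moved the median to -0.27 and the downregulated DEGs to 508 (53.9% upregulated). Leaving out all 6 RNAs moved the median to -0.24 and gave 604 upregulated and 429 downregulated DEGs (58.5% upregulated). Such shifts follow from the shares left to the other genes, and TMM places the median near 0 by design, so the percentages given here are a description. Leaving out the 6 RNAs removed 25.9% of the distance of the median from 0, and leaving out ENSMUSG00000076258 alone 15.7%. With the mitochondrial ribosomal RNAs left out too, the median was -0.15 and 254 genes were downregulated (71.3% upregulated), and 53.7% of that distance was gone. Without replicate 1 at 6 h PCS the median under the total was -0.27, and leaving the 6 RNAs out removed 8.18% of it, so most of their effect on the median came with that library.

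Of the 627 genes called downregulated under the total of gene counts, 429 were still called with the 6 RNAs left out, and 138 under TMM. Of the 762 genes upregulated under TMM, 563 were also upregulated under the total. The TMM factors moved with the 6 RNAs, and the factor of 6 h PCS replicate 1 was 0.827 with them and 0.927 without them. The library sizes after TMM scaling, which are the total times the factor, hardly moved relative to each other. The relative size of a library differed by at most 0.0314% between TMM with and without them, and 898 of the 900 DEGs were shared.

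The 6 RNAs were themselves affected by the choice. Under the total of gene counts the log2 fold changes were 0.23 for ENSMUSG00000076258, 0.21 for Malat1, 1.04 for Neat1, 0.69 for Gm26917 (edgeR FDR 0.0339), 0.52 for Gm42418 (edgeR FDR 0.0635) and 0.020 for ENSMUSG00000065037. In that fit 0 of the 6 was a DEG by edgeR, against 7.13% of all tested genes. Of the 6, 2 were at an unadjusted p under 0.05 (33.3% of all tested genes in that edgeR fit) and 1, Gm26917, at an FDR of at most 0.05 (15.3%). With DESeq2, on its own size factors, 1 of the 6 was a DEG, against 7.92% of all tested genes.

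**Figure D5:**
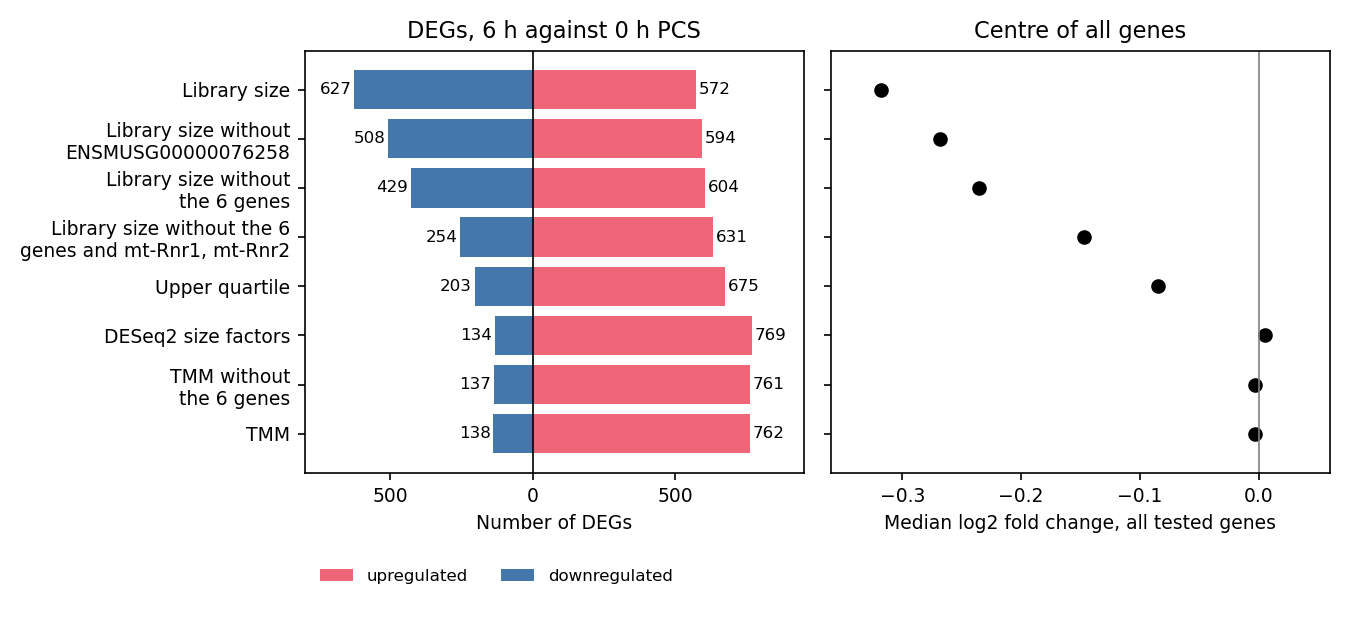
Number of upregulated (right of 0) and downregulated (left of 0) DEGs, 6 h against 0 h PCS, beside the median log2 fold change of the tested genes, for 8 ways of scaling the libraries. Leaving the 6 RNAs out of the total moves the downregulated DEGs from 627 to 429 and the median from -0.32 to -0.24, and TMM with and without them gives 138 and 137.

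Genes that work with RNAs of this kind were looked at in 6 lists. Symbols were at hand for 6372 of the 16810 tested genes, from tables that lean towards changed genes, so a count over a list describes only its named genes. For comparison, all tested genes together had a median log2 fold change of -0.0030. Of all tested genes 5.35% were DEGs by edgeR under TMM, 7.92% by DESeq2 and 7.47% by the exact test of edgeR, and 23.0% were at an unadjusted edgeR p under 0.05.

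Of the speckle and splicing list, 8 of 17 genes were named and tested, and their median log2 fold change was 0.51. By edgeR 0 of the 8 was a DEG, with 5 at an unadjusted p under 0.05 (23.0% of all tested genes), and DESeq2 and the exact test of edgeR called 0 as well. Srsf11, a splicing factor of the SR family, was at 113 ± 20.4 and 195 ± 36.2 CPM (SD, n = 3; log2 fold change 0.79, edgeR FDR 0.0262) and stayed under the fold limit. Hnrnpu, a nuclear RNA-binding protein, was at 419 ± 34.0 and 594 ± 44.2 CPM (edgeR FDR 0.0491). Srrm2, a core protein of nuclear speckles, was at 738 ± 61.8 and 1051 ± 147 CPM (edgeR FDR 0.0685). Scaling by the total of gene counts left 1 of the 8 at an unadjusted edgeR p under 0.05 (33.3% of all tested genes). Srsf11 and Hnrnpu were the 2 of the 8 at an FDR of at most 0.05 (8.33% of all tested genes). None of the 8 was at that FDR under that scaling (15.3%) or without 0 h PCS replicate 1 (3.53%) or replicate 2 (5.57%). In the other direction, 5 of the 8 were at that FDR with DESeq2 (13.0% of all genes tested), and 5 in edgeR with no filter on low counts (8.07%).

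Of the paraspeckle list 3 of 15 genes were named and tested, with a median of 0.067. By edgeR 0 was a DEG and 0 was at an unadjusted p under 0.05, and DESeq2 called 0. Tardbp, an RNA-binding protein, was at 83.0 ± 4.10 and 74.6 ± 4.25 CPM, and Cpsf6, a 3' end processing factor, at 78.3 ± 9.25 and 82.0 ± 13.2 CPM (SD, n = 3). Proteins that define paraspeckles, such as Sfpq and Nono, had no symbol at hand and were not analysed here.

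Of the list of the 7SK complex and the elongation factor P-TEFb, which the noncoding RNA 7SK holds inactive, 7 of 14 genes were tested, with a median of 0.030. Aff1, a scaffold of the super elongation complex, was the 1 DEG of the 7 (5.35% of all tested genes) and rose from 194 ± 13.9 to 576 ± 137 CPM (SD, n = 3; log2 fold change 1.57, SE 0.184, edgeR FDR 0.000974). Ell2, an elongation factor of the same complex, met the FDR limit and missed the fold limit (log2 fold change 0.94, edgeR FDR 0.0236). Zc3h4 was at 71.5 ± 0.336 and 77.8 ± 9.69 CPM. Mepce, the enzyme that caps 7SK, was at 17.3 ± 1.44 and 10.4 ± 1.48 CPM (log2 fold change -0.73, edgeR FDR 0.0520). Scaling by the total of gene counts called 2 of the 7 (7.13% of all tested genes), Aff1 upregulated and Mepce downregulated (log2 fold change -1.05, edgeR FDR 0.0131), and 2 of the 7 were also DEGs under TMM without replicate 1 (4.94% of the genes tested) or replicate 2 (4.37%) at 6 h PCS.

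Of the list of ribosomal RNA synthesis and processing 6 of 22 genes were tested, with a median of 0.22. Nop58, a core protein of box C/D small nucleolar RNPs, was the 1 DEG of the 6 (5.35% of all tested genes) and rose from 40.0 ± 0.884 to 101 ± 17.4 CPM (SD, n = 3; log2 fold change 1.34, SE 0.152, edgeR FDR 0.000797). Ncl, which encodes nucleolin, was at 655 ± 58.4 and 574 ± 83.3 CPM (edgeR FDR 0.506). Wdr43 met the FDR limit and missed the fold limit (log2 fold change 0.86, edgeR FDR 0.0277). Without 0 h PCS replicate 3 (3.78% of the genes tested) or 6 h PCS replicate 2 (4.37%), 2 of the 6 were DEGs.

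Of the list of RNA polymerase III and the signal recognition particle 4 of 16 genes were tested, with a median of -0.38. By edgeR 0 of the 4 was a DEG (5.35% of all tested genes), with 2 at an unadjusted p under 0.05 (23.0%), and DESeq2 called 0 (7.92%). Srpr, a receptor of the particle, was at 65.8 ± 2.48 and 76.8 ± 2.15 CPM, and Brf1, an initiation factor of RNA polymerase III, at 58.0 ± 2.78 and 60.0 ± 10.5 CPM (SD, n = 3). Maf1, a repressor of RNA polymerase III, was at 20.4 ± 0.792 and 11.7 ± 4.17 CPM (log2 fold change -0.80, edgeR FDR 0.0815), and Brf2, another of its initiation factors, at 7.59 ± 1.93 and 3.83 ± 1.40 CPM (log2 fold change -0.99, edgeR FDR 0.117). Both were lower in every 6 h library than in every 0 h library, against 15.3% of all tested genes. Scaling by the total of gene counts called these 2 of the 4, both downregulated, against 7.13% of all tested genes, and under TMM 1 of the 4 was called without 6 h PCS replicate 2 (4.37% of the genes tested).

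Of the list of other long noncoding RNAs 16 of 31 were tested, with a median of 0.45. The DEGs were 2 of the 16, both upregulated, against 5.35% of all tested genes. Rian, from the imprinted Dlk1-Meg3 region, rose from 11.0 ± 3.50 to 25.3 ± 2.64 CPM (SD, n = 3; log2 fold change 1.20, SE 0.252, edgeR FDR 0.0175). Mir22hg, the host transcript of miR-22, rose from 7.33 ± 2.16 to 20.3 ± 4.71 CPM (SD, n = 3; log2 fold change 1.47, SE 0.281, edgeR FDR 0.0117). Kcnq1ot1, an imprinted antisense transcript with the highest counts of the 16, was at 206 ± 55.3 and 215 ± 73.0 CPM. Oip5os1 was at 105 ± 4.77 and 80.0 ± 14.0 CPM (edgeR FDR 0.152). DESeq2 called 4 of the 16, against 7.92% of all tested genes. Scaling by the total of gene counts also called 2 of the 16 (7.13% of all tested genes), Mir22hg upregulated and Snhg20 downregulated (log2 fold change -1.15, edgeR FDR 0.0410), while Rian, at 0.87, was under the fold limit. With the 6 RNAs left out of the total (6.15% of all tested genes), or under TMM without 0 h PCS replicate 1 (3.15%), 1 of the 16 was called.

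The libraries held 18039974 to 24701039 gene counts. Of 10 lens epithelial markers 6 were named, and their summed level was 1700 to 1925 CPM in the 0 h libraries and 1510 to 1772 CPM in the 6 h libraries. Epha2, an ephrin receptor, was the 1 DEG of these 6 (5.35% of all tested genes) and was upregulated (log2 fold change 1.21, edgeR FDR 0.0134). The transcription factors Prox1 (log2 fold change -0.75, edgeR FDR 0.0119) and Sox2 (-0.70, edgeR FDR 0.0151) fell within the fold limit, with groups that did not overlap (15.3% of all tested genes in that direction). The other 3, Pax6, Foxe3 and Gja1, had log2 fold changes of -0.51, 0.28 and 0.41 and did not pass the test. The groups of Foxe3 and Epha2 did not overlap either, and both genes were higher at 6 h PCS (15.3% of all tested genes in that direction). The 4 hemoglobin genes, markers of erythrocytes, were all upregulated DEGs (4.53% of all tested genes), with a summed level of 6.43 to 17.5 CPM before and 62.6 to 114 CPM after the 6 h. Markers of other cells were summed in the same way and had 1 DEG (5.35% of all tested genes) among 2 corneal, 3 pigment cell, 5 leukocyte and 3 endothelial genes, the macrophage gene Cd68 of the leukocyte list (log2 fold change 2.55), where the other tested genes Ptprc, Itgam, Lyz2 and Csf1r had log2 fold changes of 1.29, 1.50, -0.16 and -0.11. Corneal epithelium (2 of 3 named) went from 0.765 to 14.7 CPM at 0 h PCS to 69.2 to 104 CPM at 6 h PCS, and pigment cells (3 of 4 named) from 38.5 to 165 CPM to 62.6 to 1598 CPM. Leukocytes (5 of 6 named) went from 13.0 to 21.1 CPM to 16.3 to 31.4 CPM, and endothelium (3 of 3 named) from 3.75 to 25.9 CPM to 19.3 to 35.8 CPM. No named marker was at 0 in all libraries, and none of the 8 lens fiber markers had a symbol at hand. The part of other cells in the levels of the 6 RNAs was not tested.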

How the data were processed

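LECs from wildtype mice were profiled by RNAseq at 0 h and 6 h PCS, with 3 libraries per time point. Per the labels and the study's methods, the libraries were made with a stranded kit after ribodepletion and the authors aligned paired reads to GRCm38.p6 with HISAT2 and counted them per gene with HTSeq. The deposited files hold these raw counts for 55421 Ensembl genes and 5 summary rows of HTSeq, which were kept out of library sizes and tests. The strand setting of the counting was not given in the sources used here, so reads of overlapping and antisense genes cannot be told apart.

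The members and the gene lists were chosen with earlier results of these data known. Counts were tested with edgeR 4.0.16 under R 4.3.3 (filterByExpr, TMM, robust quasi-likelihood F-test in the form of edgeR 3, Benjamini-Hochberg FDR), and the SE was taken from the F statistic. The scripts were tested on simulated data. Alternatives were other scalings, filters and tests (DESeq2 1.42.0), a replicate block and leaving out each library. Genes named in the lists were the DEGs, the 2 most abundant others and, chosen after their values were seen, Srsf11, Maf1, Brf2, Mepce and Snhg20, as were the markers named singly. Likeness was Pearson's r of log2 CPM. Replicates differed beyond sampling noise, and whether pools shared animals was not given, so p-values measure the spread between pools. Symbols came from the study's supplementary gene tables (7023 genes), and positions from RefSeq on GRCm38.p6, where 3 of the 6 genes matched.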

Additional observations from a re-analysis of the deposited data

How the results depend on the processing

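Over 22 alternatives each, 128 of the 132 log2 fold changes of the 6 RNAs were above 0, and 115 kept both direction and call. The 4 that turned were Malat1 (-0.065 and -0.040) and ENSMUSG00000065037 (-0.053 and -0.030) when the libraries were scaled by the total of gene counts, with and without the 6 RNAs, and 6 h PCS replicate 1 was left out, combinations chosen after seeing the data. In those 2 fits the downregulated DEGs were 427 and 395, the median of all genes -0.27 and -0.25, and Gm26917 at 0.47 and 0.50. Gm26917 was also under the fold limit with the total of gene counts (0.69), without ENSMUSG00000076258 in it (0.76), without the 6 RNAs (0.80), without these and the mitochondrial ribosomal RNAs (0.89, added after seeing the data) and with upper quartile scaling (0.96). In all of these, and with glmTreat against a fold of 2, 0 of the 6 RNAs was a DEG, where 5.22% to 7.13% of all genes tested were DEGs under the scalings and 1.31% with glmTreat. The cause was not tested.

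The medians of all genes under those 5 scalings were -0.32, -0.27, -0.24, -0.15 and -0.084, and the downregulated DEGs of the first 4 were 627, 508, 429 and 254, against 138. They were 257 with no filter on low counts, 256 with DESeq2 and 253 with the exact test of edgeR. With glmTreat the DEGs were 221, of which 217 were upregulated and 4 downregulated, against 900. The summed share at 0 h PCS was 21.5% with ambiguous pairs in the total. It was 8.85% and 9.88% of all read pairs at 0 h and 6 h PCS, and 6.49% and 8.62% with ENSMUSG00000076258 left out of both parts.

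Leaving out a library gave 553 to 877 DEGs, 510 to 742 upregulated and 43 to 140 downregulated. The lowest counts came without 0 h PCS replicate 1 (553, with 43 downregulated), and without 0 h PCS replicate 3 there were 53 downregulated. DEGs among the 6 RNAs ran from 0 to 2, where 3.15% to 4.94% of the genes tested were DEGs. The log2 fold change ran from 0.74 to 1.21 for Gm26917 and from 0.61 to 1.00 for Gm42418, and the median of all genes from -0.028 to 0.0072. The summed share ran from 21.7% to 22.0% in the 0 h libraries and from 23.2% to 28.1% in the 6 h libraries.

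The replicate numbers of the groups were not shown to pair the libraries. The deviations of same-numbered libraries correlated at -0.012, 0.31 and 0.17 for replicates 1, 2 and 3. Replicates 2 and 3 correlated best with their own number, and replicate 1 did not. With a replicate block there were 1050 DEGs (6.25% of all tested genes), Gm26917 had a log2 fold change of 0.98 (edgeR FDR 0.0090), and 0 of the 6 RNAs was a DEG.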
